A study of Gossypium hirsutum with 30 samples.

Results

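On the Affymetrix cotton GeneChip, 33 of the 24132 probe sets in the deposited table stand for the supply of cell wall sugars and for the glycoproteins of the wall in developing cotton ovules. They are the transcripts that the study's own list of differentially expressed transcripts (DETs) places under cell wall precursor biosynthesis, arabinogalactans and proline-rich proteins, namely 15 probe sets of precursor enzymes, 15 of arabinogalactan proteins and 3 of proline-rich proteins. All 33 were found in the table. They were chosen by the study on their fold change and p-value between the genotypes on these same arrays, so their values at all 5 stages are given as a description and no p-value is attached to any of them.

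The samples are field-grown ovules of Gossypium hirsutum L., in 10 groups of 3 biological replicates, 30 arrays in all. The WT groups are ovules of cultivar MCU5 with their fibres still attached, and the mutant groups are fuzzless-lintless ovules of its near-isogenic fl mutant, a spontaneous mutant of MCU5 kept as a pure line. Both genotypes were sampled at 0, 5, 10, 15 and 20 days post anthesis (dpa), and neither received a treatment. Whole ovules were extracted, so that WT RNA includes RNA of elongating fibre cells that mutant ovules do not form, and fewer fibre cells cannot be told apart from less RNA of a gene per cell.

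A cotton fibre is a single epidermal cell of the ovule that elongates behind a primary wall and then lays down a thick wall of cellulose. The sugars of these walls come from nucleotide sugars. Sucrose synthase and UDP-glucose pyrophosphorylase supply UDP-glucose, and dehydrogenases, epimerases and decarboxylases turn UDP-glucose into the UDP forms of glucuronic acid, galacturonic acid, galactose and xylose for pectin and hemicellulose. Arabinogalactan proteins are secreted proteins whose hydroxyproline residues carry large arabinose and galactose chains, and the fasciclin-like ones (FLAs) also hold fasciclin domains, which are known from cell adhesion proteins. Proline-rich proteins are structural proteins of the wall with repeated proline motifs.

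Each of 4 members was also given a primer pair for quantitative PCR in the study, listed beside the probe set ID, and no probe or transcript sequence was used here to place them. They are shown for SusC and GAE1, enzymes at the entry and at a branch of the sugar pathway, and for AGP2 and FLA6, a pair of arabinogalactan proteins with different timing. Each is printed 5′ to 3′ in lower case, with no position capitalised.
SusC forward: tcgaagaaattggcaagggtctcg
SusC reverse: aggcaatgacctgtggactaccaa
GAE1 forward: accggaggaaccgcaagttaaa
GAE1 reverse: cccggtatttcttgtcagttcttt
AGP2 forward: tctccagccttaaatcgggcacat
AGP2 reverse: tcaccagcttgggttctcaaagga
FLA6 forward: acccttaaccgctgctttaggact
FLA6 reverse: aatgtgacgaccggagtggtgaat
The primers are 22 to 24 bases long.

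The deposited values are on the log2 scale, and for each probe set the 6 arrays of a stage have a median of 0. A value therefore says how far an array lies from the middle of its own stage. It gives no level, no change from stage to stage and no order between genes, and the labelled tissue could not be checked against levels of marker genes. Probe set IDs are printed in capitals. Differences are fl mutant minus WT on the log2 scale, with the standard error (SE) of limma's fit and n = 3 arrays per genotype. At 5 and 20 dpa the direction by the sample labels was opposite to that in the study's tables for 3 of 3 and 15 of 15 members listed there, whereas at 0, 10 and 15 dpa it was the same for 2 of 2, 25 of 25 and 14 of 14. The paper reports that quantitative PCR over the same stages resembled its own array results for every gene assayed. Those PCR values were not used here. The labels were kept, and for 5 and 20 dpa the text speaks of the arrays labelled fl mutant or WT.

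Calls follow the thresholds of the study, a change of 3-fold or more together with an adjusted p (Benjamini-Hochberg, over all probe sets tested) not above 0.01. At 10 dpa 24 of the 33 members were called lower and 1 higher in the fl mutant, beside 6.55% and 4.91% of all 24029 probe sets tested. At 15 dpa 13 members were lower and 2 higher, beside 1.91% and 1.52% of all probe sets. At 20 dpa 14 members were higher and 3 lower in the arrays labelled fl mutant, beside 2.47% and 1.95%. Few members were called early, with 2 lower and 0 higher at 0 dpa (1.39% and 0.154% of all probe sets), and 2 higher and 1 lower at 5 dpa in the arrays labelled fl mutant (1.84% and 0.179%). Because the members were chosen as DETs of these contrasts, nothing is read from the gap between these shares.

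Every member was called at 1 stage or more. Of the 33, 14 were called at 1 stage, 11 at 2, 6 at 3 and 2 at 4 of the 5 stages. In the 62 called values out of 165 the 3 fl mutant arrays and the 3 WT arrays did not overlap, and neither did they in 72 of the values that were not called. Over all probe sets the genotypes did not overlap for 56.9% at 0 dpa, 49.2% at 5 dpa, 64.3% at 10 dpa, 54.8% at 15 dpa and 58.3% at 20 dpa, so this separation is common on these arrays. The SD within a genotype had a median of 0.0894 over the members' values and reached 0.480.

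**Figure D1:**
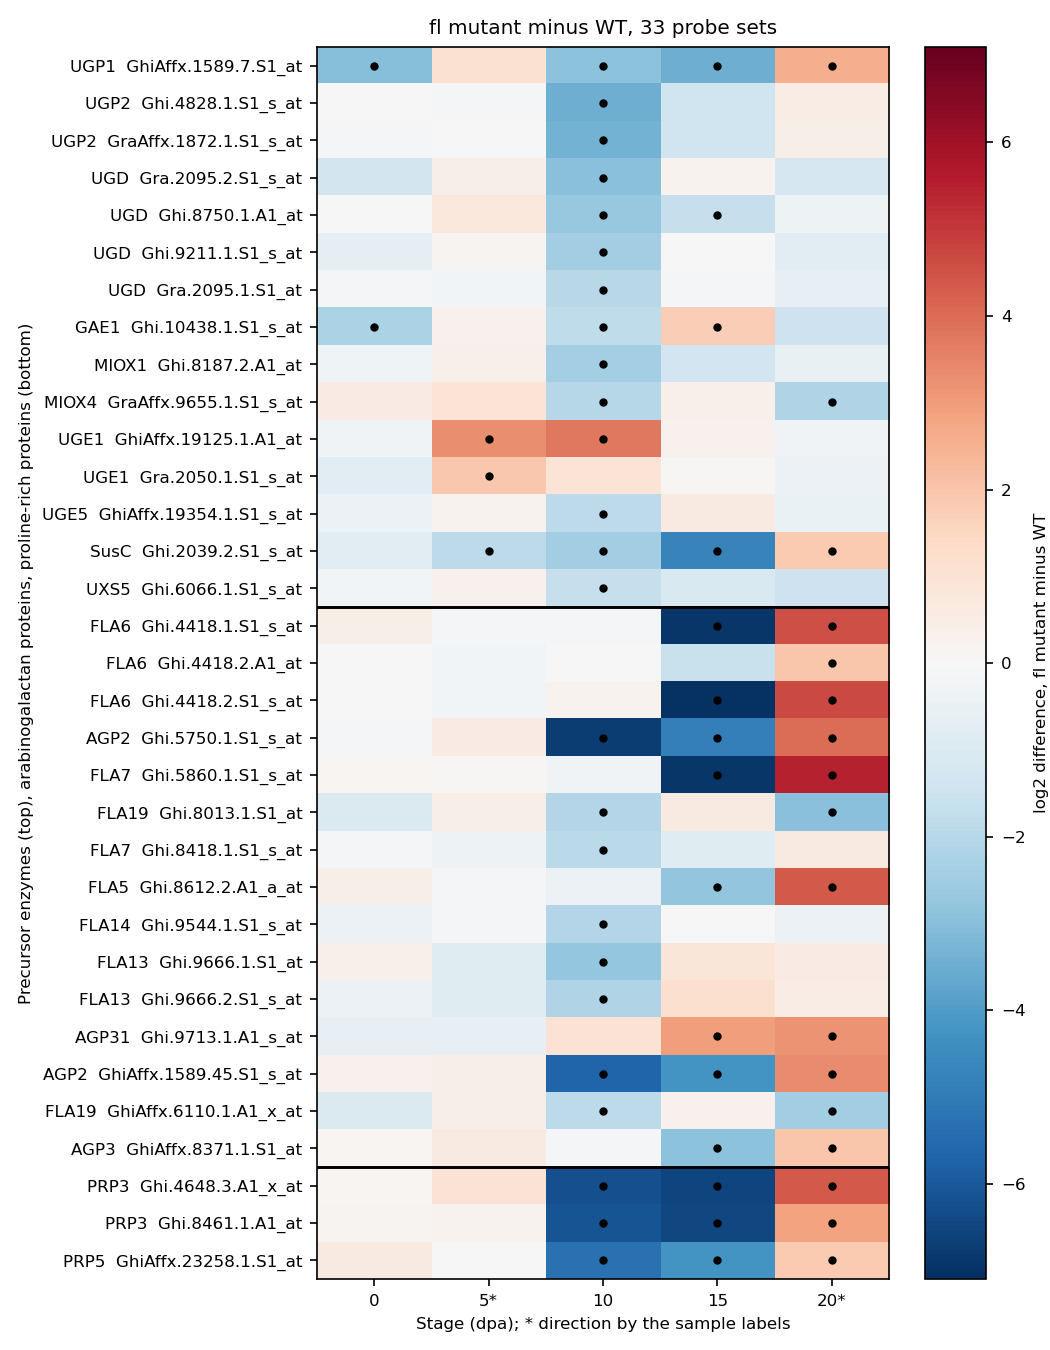
Log2 difference, fl mutant minus WT, of the 33 probe sets (rows, by class from the precursor enzymes at the top to the proline-rich proteins at the bottom) at 5 stages (columns, dpa). Colour runs from blue (lower in the fl mutant) to red (higher), black dots mark called values, and stars mark the stages whose direction rests on the sample labels. The column of 10 dpa is blue for 13 of 15 precursor enzymes, while the deepest blue of several FLA rows stands at 15 dpa.

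The 3 classes differed in when they were called. Among the 15 precursor enzymes, 13 were lower and 1 higher at 10 dpa, against 3 lower and 1 higher at 15 dpa. Among the 15 arabinogalactan proteins, 8 were lower at 10 dpa, and at 15 dpa 7 were lower beside 1 that was higher. All 3 proline-rich proteins were lower at both stages. The median log2 difference of the precursor enzymes was −2.40 at 10 dpa and −0.10 at 15 dpa, that of the arabinogalactan proteins −1.88 and −1.58, and that of the proline-rich proteins −6.11 and −6.46. Over all probe sets the medians were 0.04 and −0.01. Several genes are represented by more than 1 probe set. With 1 probe set per UniGene cluster the arabinogalactan median at 10 dpa was −1.18, and the median at 15 dpa was then the wider. The order of these stages in that class therefore depends on the probe sets counted.

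Sucrose synthase splits sucrose into fructose and UDP-glucose, and SusC (GHI.2039.2.S1_S_AT, matched to Arabidopsis SUS4) represents it among the members. At 10 dpa the WT arrays of SusC were at 1.02, 1.23 and 1.03 and the fl mutant arrays at −1.02, −1.42 and −1.63, a difference of −2.46 (SE 0.154). At 15 dpa WT was at 2.40, 2.53 and 2.29 and the fl mutant at −2.33, −2.29 and −2.37, a difference of −4.74 (SE 0.0692) or 26.7-fold. All WT arrays lay above all mutant arrays at both stages, and 15 dpa had the widest gap of any precursor enzyme at any stage. At 20 dpa the arrays labelled WT were at −0.97, −0.88 and −1.00 and those labelled fl mutant at 0.91, 1.02 and 0.88, a difference of 1.88 (SE 0.0727). SusC was also called at 5 dpa, where the arrays labelled WT were at 0.79, 1.00 and 1.01 and those labelled fl mutant at −0.93, −0.79 and −1.01, a difference of −1.85 (SE 0.0878). By the labels, then, the arrays labelled fl mutant were low at 5 dpa and high at 20 dpa.

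UDP-glucose pyrophosphorylase makes UDP-glucose from glucose 1-phosphate and UTP, and 3 probe sets stand for it. UGP1 (GHIAFFX.1589.7.S1_AT) was called at 4 stages, like SusC. At 0 dpa its WT arrays were at 1.23, 1.42 and 1.39 and its mutant arrays at −1.66, −1.23 and −2.07, a difference of −3.00 (SE 0.191). At 10 dpa WT was at 1.37, 1.38 and 1.50 and the fl mutant at −1.61, −1.37 and −1.55, a difference of −2.93 (SE 0.0941). The mutant arrays were the low ones at both stages, with no overlap. At 15 dpa WT was at 1.54, 2.07 and 1.79 and the fl mutant at −1.76, −1.79 and −1.54, a difference of −3.49 (SE 0.142). At 20 dpa the arrays labelled WT were at −1.30, −1.56 and −1.17 and those labelled fl mutant at 1.25, 1.31 and 1.17, a difference of 2.59 (SE 0.106). At 5 dpa UGP1 was not called, with the arrays labelled WT at −0.43, −0.70 and −0.51 and those labelled fl mutant at 0.43, 0.75 and 0.46, a difference of 1.09 (SE 0.109). The position of the genotypes by the labels at 5 and 20 dpa is thus the reverse of that at 0, 10 and 15 dpa.

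Both UGP2 probe sets were called at 10 dpa only. For GHI.4828.1.S1_S_AT the WT arrays were at 1.84, 1.97 and 1.47 and the fl mutant arrays at −2.04, −1.47 and −1.59, a difference of −3.46 (SE 0.177). The second UGP2 probe set, GRAAFFX.1872.1.S1_S_AT, differed by −3.35 (SE 0.0862). At 15 dpa the pair differed by −1.40 and −1.43, under the fold threshold, and at 0 and 5 dpa both lay between −0.16 and 0.01. The isoforms therefore differed in their calls, UGP1 being called at 0, 10, 15 and 20 dpa and UGP2 at 10 dpa only.

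UDP-glucose 6-dehydrogenase (UGD) oxidises UDP-glucose to UDP-glucuronic acid, the parent of the xylose, arabinose and galacturonic acid units of the wall. All 4 UGD probe sets were lower at 10 dpa, by −2.99, −2.67, −2.48 and −1.95. For GRA.2095.2.S1_S_AT the WT arrays were at 1.55, 1.43 and 1.43 and the mutant arrays at −1.65, −1.43 and −1.47 (SE 0.0917). For GHI.8750.1.A1_AT WT was at 1.34, 1.26 and 1.33 and the fl mutant at −1.26, −1.29 and −1.54 (SE 0.0997). GHI.8750.1.A1_AT was the only UGD probe set called at 15 dpa as well, with WT at 0.79, 0.83 and 0.87 and the fl mutant at −0.79, −0.83 and −0.82, a difference of −1.64 (SE 0.0428). The other 3 UGD probe sets lay between −0.10 and 0.25 at that stage.

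Glucuronic acid is also made from myo-inositol by myo-inositol oxygenase (MIOX), and both MIOX probe sets among the members were lower at 10 dpa. MIOX4 (GRAAFFX.9655.1.S1_S_AT) was at 1.01, 1.00 and 0.93 in WT and at −0.93, −1.17 and −1.08 in the fl mutant, a difference of −2.04 (SE 0.0911), and MIOX1 (GHI.8187.2.A1_AT) differed by −2.40 (SE 0.104). At 20 dpa MIOX4 was at 1.09, 1.09 and 0.97 in the arrays labelled WT and at −1.07, −0.97 and −1.27 in those labelled fl mutant, a difference of −2.15 (SE 0.0923). MIOX4 was the precursor enzyme called lower at 20 dpa, where UGP1 and SusC were called higher.

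UDP-glucuronic acid is turned into UDP-galacturonic acid, the main sugar of pectin, by glucuronate 4-epimerase, and into UDP-xylose by UDP-xylose synthase. GAE1 (GHI.10438.1.S1_S_AT), a glucuronate 4-epimerase, was the member called on opposite sides at stages whose direction the labels and the study's tables share. At 0 dpa its WT arrays were at 1.09, 1.07 and 1.09 and its mutant arrays at −1.24, −1.07 and −1.16, a difference of −2.24 (SE 0.0612). At 10 dpa WT was at 0.98, 0.87 and 0.89 and the fl mutant at −0.89, −0.92 and −0.87, a difference of −1.81 (SE 0.0781). At 15 dpa WT was at −0.96, −0.83 and −0.87 and the fl mutant at 0.91, 0.83 and 0.89, a difference of 1.76 (SE 0.0514). The mutant arrays were thus the low ones at 0 and 10 dpa and the high ones at 15 dpa, without overlap at any of these stages. UXS5 (GHI.6066.1.S1_S_AT), a UDP-xylose synthase, was called at 10 dpa only, with WT at 0.74, 0.97 and 0.86 and the fl mutant at −0.86, −0.81 and −0.74, a difference of −1.66 (SE 0.0914).

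UDP-glucose 4-epimerase (UGE) interconverts UDP-glucose and UDP-galactose, the sugar of galactans and of arabinogalactan chains, and UGE1 was on the high side at 5 dpa, by the labels, and at 10 dpa. UGE1 (GHIAFFX.19125.1.A1_AT) was at −2.04, −1.77 and −1.95 in WT and at 1.82, 1.77 and 1.85 in the fl mutant at 10 dpa, a difference of 3.73 (SE 0.0948) or 13.3-fold. At 5 dpa it was at −2.12, −1.38 and −2.18 in the arrays labelled WT and at 1.44, 1.47 and 1.38 in those labelled fl mutant, a difference of 3.32 (SE 0.197). It was the 1 member of 33 called higher at 10 dpa. The second UGE1 probe set, GRA.2050.1.S1_S_AT, was at −0.90, −1.06 and −0.96 in the arrays labelled WT and at 0.94, 0.92 and 0.90 in those labelled fl mutant at 5 dpa, a difference of 1.90 (SE 0.0629). At 10 dpa it lay on the same side with 0.96 (SE 0.0796), under the fold threshold. UGE5 (GHIAFFX.19354.1.S1_S_AT) was lower at 10 dpa, by −1.85 (SE 0.0919), so the UGE probe sets did not share a direction.

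**Figure D2:**
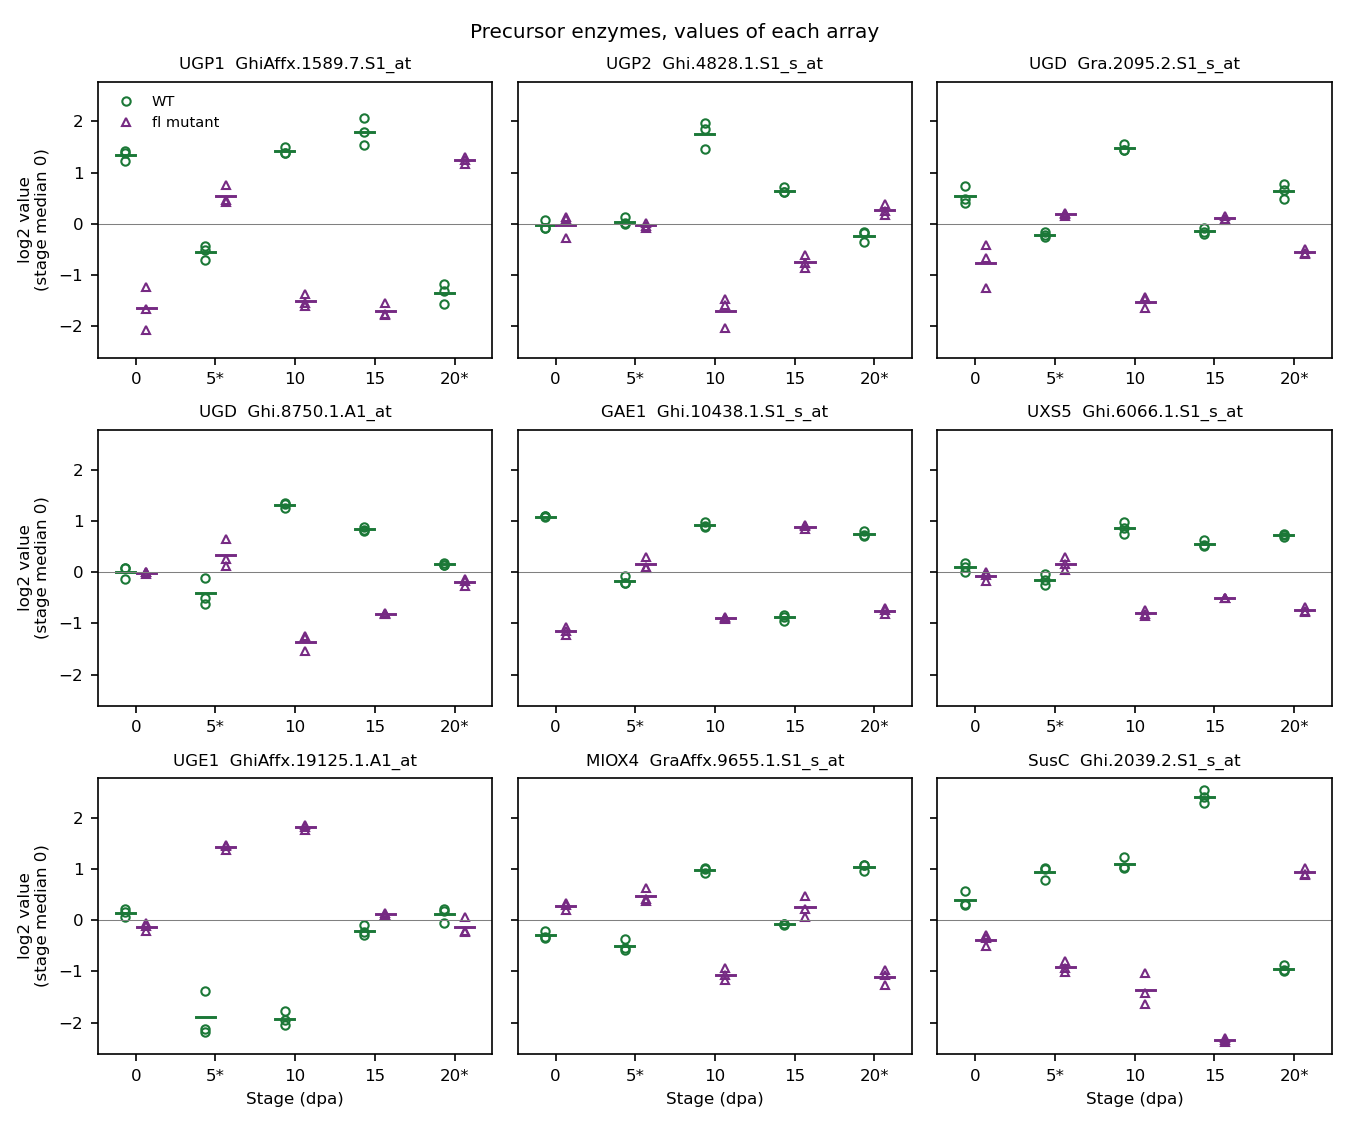
Log2 value of each array (stage median 0) at 5 stages for 9 probe sets of precursor enzymes, with WT as green circles, the fl mutant as purple triangles and the genotype means as bars. Stars mark the stages whose direction rests on the sample labels. GAE1 shows the mutant arrays below WT at 0 and 10 dpa and above at 15 dpa, and SusC shows its widest gap at 15 dpa (−4.74).

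The arabinogalactan proteins fell into those called first at 15 dpa, those called at 10 and 15 dpa, and those called at 10 dpa but not at 15 dpa, apart from AGP31 and an FLA6 probe set called at 20 dpa alone. FLA6 (GHI.4418.2.S1_S_AT, matched to Arabidopsis FLA11), FLA7 (GHI.5860.1.S1_S_AT), FLA5 (GHI.8612.2.A1_A_AT) and AGP3 (GHIAFFX.8371.1.S1_AT) belong to the first kind. The name FLA7 is that of the Arabidopsis match, whereas FLA5, FLA6 and AGP3 are cotton names. Arabidopsis FLA11 and FLA12 are known from stem tissue that forms secondary walls. For FLA6 at 15 dpa the WT arrays were at 3.44, 3.43 and 3.49 and the mutant arrays at −3.43, −3.82 and −3.51, a difference of −7.04 (SE 0.103) or 132-fold. At 10 dpa the same probe set differed by 0.24, so that the gap of 15 dpa was not seen at 10 dpa. For FLA7 at 15 dpa WT was at 3.39, 3.36 and 3.46 and the fl mutant at −3.53, −3.64 and −3.36, a difference of −6.92 (SE 0.0770), after −0.22 at 10 dpa.

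FLA5 and AGP3 had the same order of arrays with smaller gaps. For FLA5 at 15 dpa WT was at 1.58, 1.28 and 1.38 and the fl mutant at −1.54, −1.30 and −1.28, a difference of −2.79 (SE 0.104). For AGP3 WT was at 1.35, 1.33 and 1.46 and the fl mutant at −1.63, −1.33 and −1.65, a difference of −2.91 (SE 0.0961). At 10 dpa these probe sets differed by −0.42 and −0.09. All mutant arrays lay below all WT arrays at 15 dpa for these 4 members.

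At 20 dpa the same 4 members lay on the other side by the labels. FLA6 was at −2.40, −2.37 and −2.29 in the arrays labelled WT and at 2.33, 2.29 and 2.33 in those labelled fl mutant, a difference of 4.67 (SE 0.0665). FLA7 was at −2.82, −2.96 and −2.58 and at 2.58, 2.73 and 2.74, a difference of 5.48 (SE 0.106), the widest of any member at this stage. FLA5 was at −2.23, −2.08 and −2.32 in the arrays labelled WT and at 2.10, 2.08 and 2.18 in those labelled fl mutant, a difference of 4.33 (SE 0.0813). These FLAs had the high arrays under the fl mutant label, with no overlap. AGP3 was at −0.93, −1.06 and −0.98 and at 1.01, 0.99 and 0.93, a difference of 1.97 (SE 0.0685).

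AGP2 (GHI.5750.1.S1_S_AT), which is matched to Arabidopsis FLA12 and is thus a fasciclin-like protein by that match, was called earlier. At 10 dpa its WT arrays were at 3.32, 3.28 and 3.25 and its mutant arrays at −3.25, −3.38 and −3.66, a difference of −6.72 (SE 0.113) or 105-fold. At 15 dpa WT was at 2.39, 2.43 and 2.39 and the fl mutant at −2.39, −2.40 and −2.53, a difference of −4.84 (SE 0.0526). The genotypes were far apart at both stages, and the gap at 10 dpa was the widest of any member at that stage. By 20 dpa AGP2 was at −2.00, −2.10 and −1.94 in the arrays labelled WT and at 2.00, 1.99 and 1.94 in those labelled fl mutant, a difference of 3.99 (SE 0.0702). At 0 and 5 dpa it differed by −0.16 and 0.58. A second AGP2 probe set, GHIAFFX.1589.45.S1_S_AT, differed by −5.69, −4.27 and 3.34 at 10, 15 and 20 dpa.

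FLA19 (GHI.8013.1.S1_AT, matched to Arabidopsis FLA2) and FLA13 (GHI.9666.1.S1_AT, matched to FLA10) were lower at 10 dpa and not called at 15 dpa. For FLA13 at 10 dpa WT was at 1.32, 1.49 and 1.28 and the fl mutant at −1.28, −1.39 and −1.40, a difference of −2.72 (SE 0.0911), and at 15 dpa the difference was 0.88. For FLA19 at 10 dpa WT was at 1.23, 1.17 and 0.84 and the fl mutant at −1.11, −0.84 and −1.09, a difference of −2.09 (SE 0.129). FLA19 then went against FLA5, FLA6 and FLA7 at 20 dpa, since the arrays labelled fl mutant were the low ones. They were at −1.44, −1.38 and −1.56 and those labelled WT at 1.50, 1.38 and 1.70, a difference of −2.99 (SE 0.0980). The second probe sets of FLA19 and FLA13 differed by −1.88 and −2.15 at 10 dpa, and that of FLA19 by −2.48 at 20 dpa. The second FLA7 match, GHI.8418.1.S1_S_AT, was lower at 10 dpa only, by −1.94 (SE 0.128), unlike the FLA7 match above, and FLA14 (GHI.9544.1.S1_S_AT) was likewise called lower at that stage alone.

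AGP31 (GHI.9713.1.A1_S_AT), matched to an Arabidopsis arabinogalactan protein with a proline-rich region, was the arabinogalactan member on the high side. At 15 dpa its WT arrays were at −1.53, −1.44 and −1.53 and its mutant arrays at 1.46, 1.51 and 1.44, a difference of 2.97 (SE 0.0484). At 20 dpa the arrays labelled WT were at −1.56, −1.66 and −1.53 and those labelled fl mutant at 1.53, 1.61 and 1.61, a difference of 3.17 (SE 0.0689). It was the only arabinogalactan member called higher at 15 dpa, and by the labels it kept its side at 20 dpa, where FLA6, FLA7, FLA5, AGP2 and AGP3 were on the opposite side from 15 dpa.

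**Figure D3:**
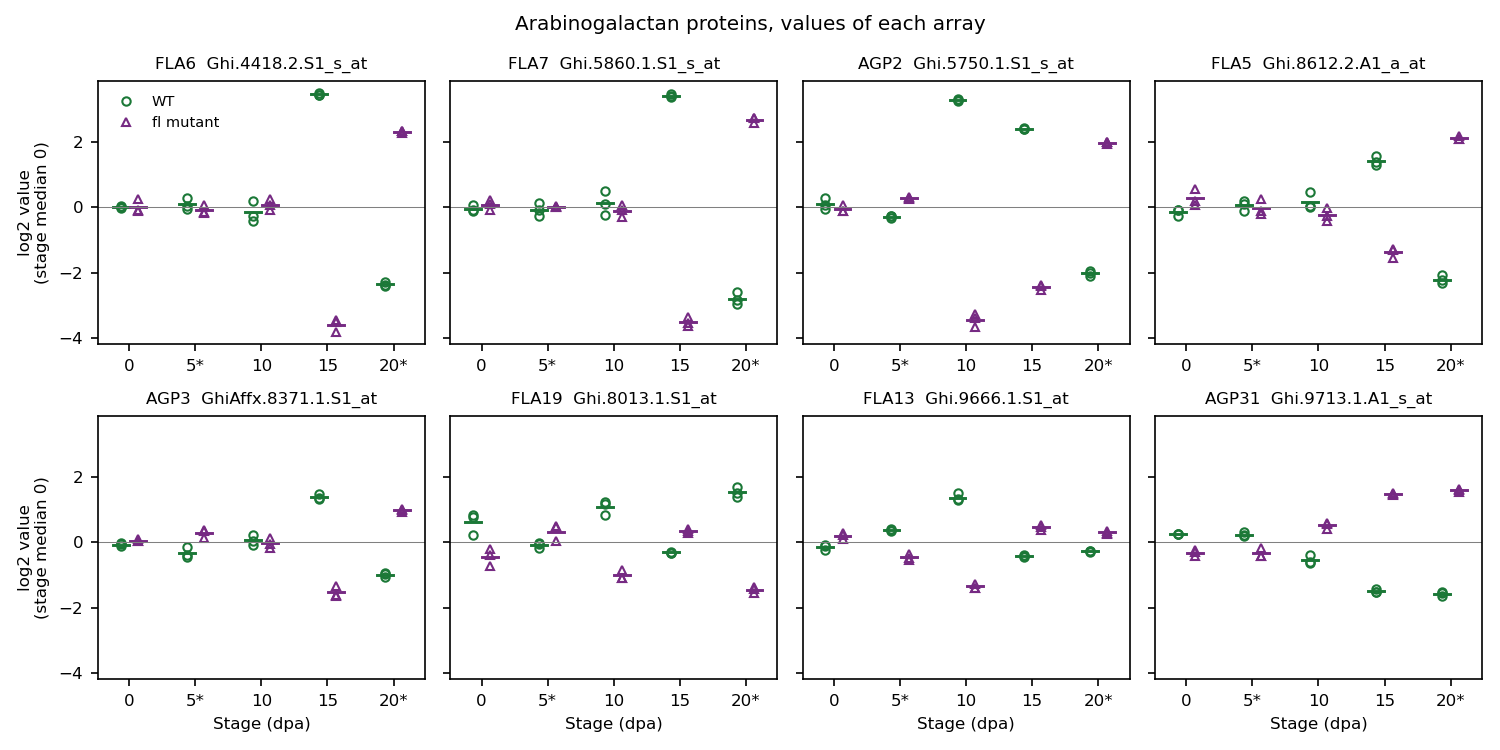
Log2 value of each array (stage median 0) at 5 stages for 8 arabinogalactan probe sets, with WT as green circles, the fl mutant as purple triangles and the genotype means as bars. Stars mark the stages whose direction rests on the sample labels. FLA6 and FLA7 part at 15 dpa (−7.04 and −6.92) but not at 10 dpa, AGP2 parts at both, and AGP31 has its mutant arrays above WT at 10 dpa (1.05, not called), 15 dpa (2.97) and, by the labels, 20 dpa (3.17).

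By their Arabidopsis match, 6 of the 15 arabinogalactan members correspond to FLA11 or FLA12, 7 to another protein and 2 have no match listed. Of the 6, 5 were called lower at 15 dpa and 6 higher at 20 dpa in the arrays labelled fl mutant, while 1 was lower at 10 dpa. Of the 7 with another match, 5 were lower at 10 dpa, 1 lower at 15 dpa and 2 higher at 20 dpa. The 2 with no match listed are the second probe sets of AGP2, whose other probe set matches FLA12, and of FLA19. Of these, 2 were lower at 10 dpa, 1 lower at 15 dpa and 1 higher at 20 dpa. This grouping was made after the values were seen and is a description of these probe sets. Of the 6, 3 belong to the single gene FLA6. A pair of these differed by −6.92 and −7.04 at 15 dpa and the third, GHI.4418.2.A1_AT, by −1.58 (SE 0.112), so the size of the FLA6 difference depends on the probe set.

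The 3 proline-rich probe sets had among the widest gaps of all members and lay on the same sides at 10, 15 and 20 dpa. For PRP3 (GHI.4648.3.A1_X_AT) at 10 dpa WT was at 3.07, 3.06 and 3.15 and the fl mutant at −3.06, −3.09 and −3.26, a difference of −6.23 (SE 0.0871). At 15 dpa WT was at 3.18, 3.15 and 3.22 and the fl mutant at −3.35, −3.44 and −3.15, a difference of −6.50 (SE 0.0790) or 90.2-fold. The mutant arrays were low at both stages without overlap. By 20 dpa the arrays labelled WT were at −2.07, −2.23 and −2.28 and those labelled fl mutant at 2.07, 2.16 and 2.18, a difference of 4.33 (SE 0.0788).

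A second probe set named PRP3 in the study's list, GHI.8461.1.A1_AT, repeated this order. At 10 dpa WT was at 3.02, 3.21 and 2.92 and the fl mutant at −2.92, −3.28 and −2.99, a difference of −6.11 (SE 0.123), and at 15 dpa WT was at 3.17, 3.04 and 3.16 and the fl mutant at −3.04, −3.56 and −3.41, a difference of −6.46 (SE 0.132). At 20 dpa the arrays labelled WT were at −1.33, −1.40 and −1.43 and those labelled fl mutant at 1.33, 1.46 and 1.59, a difference of 2.85 (SE 0.0837). PRP5 (GHIAFFX.23258.1.S1_AT), another proline-rich protein, had the same sides with smaller gaps. Its WT arrays were at 2.61, 2.57 and 2.61 and its mutant arrays at −2.57, −2.82 and −2.74 at 10 dpa, a difference of −5.31 (SE 0.0907). At 15 dpa it differed by −4.25 (SE 0.0608), with WT at 2.19, 2.06 and 2.17 and the fl mutant at −2.06, −2.20 and −2.08. By 20 dpa those labelled WT were at −1.25, −0.86 and −0.75 and those labelled fl mutant at 1.06, 0.75 and 0.94, a difference of 1.87 (SE 0.140). At 0 and 5 dpa none of the 3 was called, and their differences lay between −0.03 and 1.05.

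**Figure D4:**
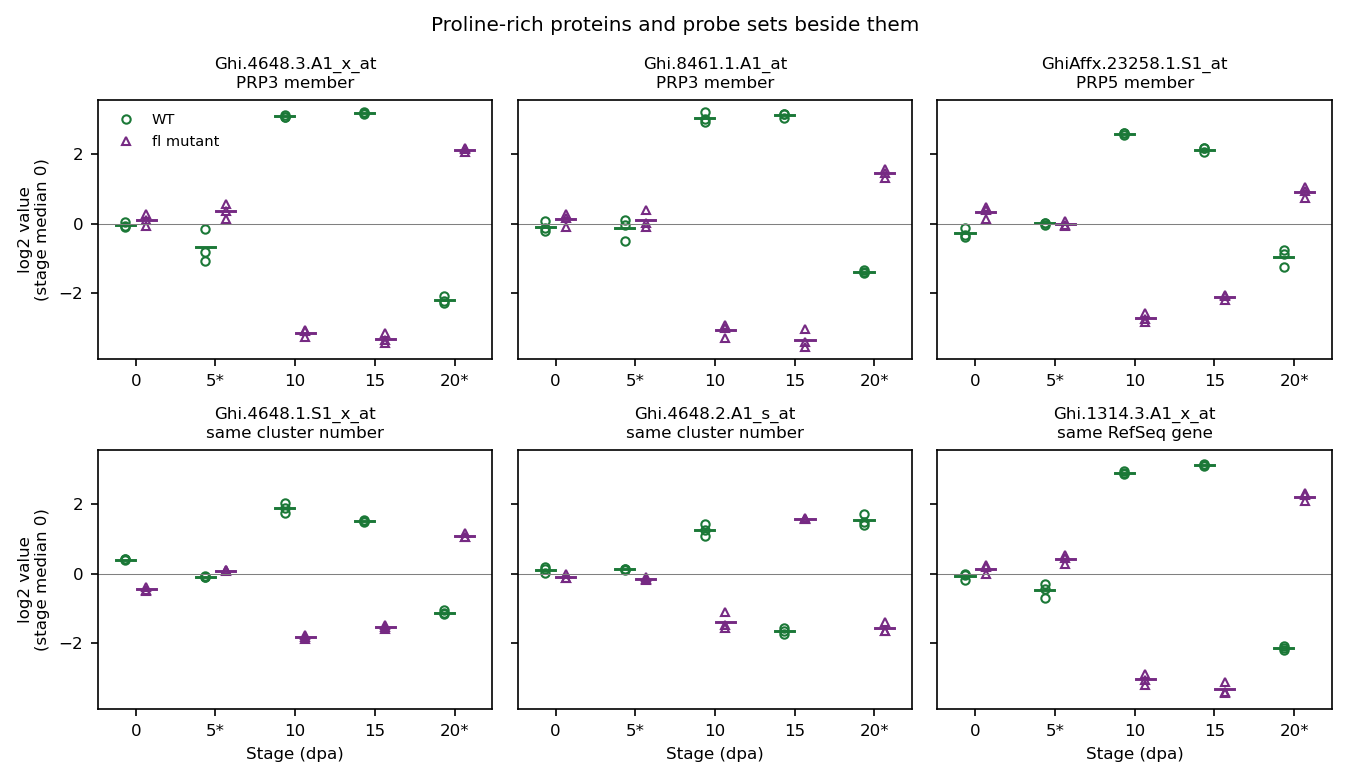
Log2 value of each array (stage median 0) at 5 stages for the 3 proline-rich members (top) and 3 probe sets outside the members that share a cluster number or a RefSeq gene with PRP3 (bottom), with WT as green circles, the fl mutant as purple triangles and the genotype means as bars. Stars mark the stages whose direction rests on the sample labels. GHI.4648.2.A1_S_AT has the mutant arrays above WT at 15 dpa (3.23), where the PRP3 members have them below.

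Across the classes, 8 members were lower at both 10 and 15 dpa, 15 were lower at 10 dpa and not called at 15 dpa, 5 were lower at 15 dpa and not called at 10 dpa, and GAE1 alone was lower at 10 and higher at 15 dpa. Of the 13 members lower at 15 dpa, 12 were higher at 20 dpa in the arrays labelled fl mutant. The exception was UGD GHI.8750.1.A1_AT, which differed by −0.34 at 20 dpa. With the labels of 20 dpa exchanged the 12 would lie on the same side at both stages. Near the fold threshold, UGD GHI.8750.1.A1_AT at 15 dpa (3.13-fold) and UXS5 at 10 dpa (3.16-fold) were the nearest called values, and FLA6 GHI.4418.2.A1_AT at 15 dpa (2.99-fold) and GAE1 at 20 dpa (2.82-fold) the nearest that were not.

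Some probe sets share a cluster number or a RefSeq gene with a member without being in the study's list. They stand beside members that were chosen on these same arrays, so no p-value is given for any of them. The study's tables of DETs name some of them elsewhere, EXPA1 among them. There were 15 of them, apart from the cluster number GHIAFFX.1589, which UGP1 and an AGP2 probe set share with 63 others and which therefore marks no gene. The link by RefSeq gene was added after the values were seen. At 10 dpa 6 of the 15 were lower and 2 higher, beside 6.55% and 4.91% of all probe sets. At 15 dpa 3 were lower and 1 higher, beside 1.91% and 1.52%. At 20 dpa 2 were lower and 3 higher in the arrays labelled fl mutant, beside 1.95% and 2.47%. As with the members, nothing is read from the gap between these shares.

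Beside PRP3, GHI.1314.3.A1_X_AT, which the platform annotation places in the same RefSeq gene (LOC107905189) as GHI.4648.3.A1_X_AT, was at 2.88, 2.89 and 2.96 in WT and at −3.20, −3.06 and −2.88 in the fl mutant at 10 dpa, a difference of −5.96 (SE 0.0993). It differed by −6.45 at 15 dpa and by 4.37 at 20 dpa. Its sides were those of the PRP3 members at all 3 stages. GHI.4648.1.S1_X_AT, of the same cluster number, had the same sides with −3.71, −3.05 and 2.22. GHI.4648.2.A1_S_AT, also of that cluster number, did not. It differed by −2.65 at 10 dpa, by 3.23 at 15 dpa, where WT was at −1.57, −1.74 and −1.66 and the fl mutant at 1.57, 1.57 and 1.59, and by −3.10 at 20 dpa. Probe sets under 1 cluster number thus lay on opposite sides at 15 and 20 dpa. The suffixes _x_at and _s_at mark probe sets whose probes may also bind similar transcripts, and copies of a gene in the A and D genomes of this tetraploid cannot be told apart.

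The platform annotation places PRP3 GHI.8461.1.A1_AT in the same RefSeq gene (LOC107909647) as GHI.1151.1.A1_AT, which the study's tables name a cellulose synthase. The values part these probe sets, since GHI.1151.1.A1_AT differed by 2.93 at 10 dpa (SE 0.110) with WT at −1.34, −1.57 and −1.34 and the fl mutant at 1.61, 1.34 and 1.59. The name of GHI.8461.1.A1_AT therefore rests on the study's list.

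Beside SusC, the cluster number GHI.2039 also covers EXPA1 (GHI.2039.1.S1_X_AT), an alpha-expansin that loosens walls during elongation. EXPA1 was at 2.91, 2.98 and 2.62 in WT and at −2.62, −3.31 and −3.32 in the fl mutant at 10 dpa, a difference of −5.92 (SE 0.194), and differed by −5.55 at 15 dpa and by 3.65 at 20 dpa. It had the sides of SusC at these 3 stages. GHI.2039.3.S1_S_AT had not, with 2.49 at 10 dpa, although it carries the same cluster number. Beside FLA19, GHIAFFX.6110.2.S1_X_AT had the same sides with −1.93 at 10 dpa and −2.17 at 20 dpa. Beside the FLA7 match GHI.8418.1.S1_S_AT, GHI.8418.2.S1_AT was lower at 10 dpa by −1.59 (SE 0.219). The remaining probe sets with a member's cluster number, beside GAE1, UGP2, MIOX1, FLA14 and FLA7, were called at no stage, and neither was GHI.1314.1.S1_X_AT, which shares the RefSeq gene of PRP3 and differed by −0.85 at 10 dpa.

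Other genes were matched to these pathways by annotation words, and only where the study's tables of DETs name them. Their counts and values therefore describe DETs and carry no p-value. Beyond the members 11 were found, 3 of precursor enzymes and 8 of proline-rich or hydroxyproline-rich proteins, and none of arabinogalactan proteins. The 8 were matched by words of their annotation, so not all of them need be wall proteins. Of these, 5 belong to the late embryogenesis abundant hydroxyproline-rich family. A further MIOX1 probe set, which the study draws in its precursor pathway as up at 20 dpa, was not among the 11. At 10 dpa 5 of the 11 were lower and 6 higher, at 15 dpa 0 lower and 5 higher, and at 0 dpa 5 lower and 0 higher. By the labels 1 was higher at 5 dpa and 2 were lower at 20 dpa. RGP3 (GHI.4598.3.A1_AT), of the family that converts UDP-arabinopyranose to the furanose form found in arabinogalactan chains, was lower at 10 dpa by −3.68 and at 0 dpa by −1.70. SUS3 (GHI.8050.1.S1_S_AT), another sucrose synthase, was higher at 10 dpa by 1.87, on the other side from SusC. UGE2 (GHIAFFX.36018.1.S1_AT) was higher at 10 dpa by 2.78, on the side of UGE1 and not of UGE5.

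Among the proline-rich proteins outside the members, a leucine-rich repeat and extensin family transcript (GHI.5780.1.S1_S_AT) was higher at 10 dpa by 3.02 and at 15 dpa by 1.99 and lower at 20 dpa by −2.79 in the arrays labelled fl mutant. Its sides were opposite to those of PRP3 and PRP5 at all 3 stages. A glycine- and proline-rich protein (GHI.5694.1.A1_X_AT) was lower at 10 dpa by −3.04 and, unlike PRP3, not called at 15 dpa, with 0.95. The hydroxyproline-rich late embryogenesis abundant protein GHI.9232.1.S1_AT was lower at 0 and 10 dpa, by −4.86 and −3.88, and higher at 15 dpa, by 3.27, the change of side that GAE1 also had.

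Transcripts listed for cell types in these ovules were called as well, in both directions at 10 dpa within the seed lists. Being DETs of the study's tables, they too are described only. Of 6 fibre transcripts outside the members (EXPA1, MYB25, FLP1, TCH4, GLP1 and FAE), 3 were lower at 0 dpa and none higher. At 5 dpa 1, FAE, was higher by 3.45 in the arrays labelled fl mutant and none lower. All 6 were lower at 10 dpa, by −3.16 to −8.27. At 15 dpa 4 of them were lower and 1, TCH4, higher by 4.72, and at 20 dpa 4 were higher in the arrays labelled fl mutant. Of 17 seed coat flavonoid transcripts, 2 were lower and 2 higher at 10 dpa, 3 were lower at 15 dpa with none called higher, while at 20 dpa 14 were lower and 3 higher in the arrays labelled fl mutant. A list of 10 seed storage and late embryogenesis transcripts holds 5 of the hydroxyproline-rich proteins above, which entered it by family name and need not mark the embryo. Of the 10, 4 were lower at 0 dpa and 4 higher at 5 dpa in the arrays labelled fl mutant, with none called the other way. At 10 dpa 4 of these 10 were higher and 4 lower, and at 15 dpa 4 were higher and none lower. At 20 dpa 2 were higher and none lower in the arrays labelled fl mutant, one of them beta-globulin (GHI.8040.1.S1_S_AT) by 9.57. The part of these cell types in the members' differences was not tested.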

How the data were processed

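Affymetrix cotton GeneChips were hybridised with RNA of 30 ovule samples, 3 arrays for each of 2 genotypes at 5 stages. The authors made the deposited log2 values by RMA (background correction, quantile normalization, median polish) in GeneSpring GX, and the values show that a further shift gave every probe set a stage median of 0 (the largest such median was 5e-07). This removes levels and changes between stages and keeps differences within a stage. No array repeated another. The number of arrays limits the precision.

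Of 24132 probe sets, 103 controls were left out. The 3 fl mutant and 3 WT arrays of each stage were compared by lmFit and eBayes of limma 3.58.1 in R 4.3.3, with Benjamini-Hochberg adjustment over 24029 probe sets; the code was tested on simulated data. Counts used Python 3.11.15, pandas 2.3.3 and numpy 2.4.6, and plots matplotlib 3.10.9. The members, lists and named genes were chosen with earlier results of these data known. Named array by array were 21 members set down by probe set; other members are given by ranges and single values. Names are those of the study's tables, in which FLA7 and AGP31 are symbols of the Arabidopsis match and not cotton names. The platform annotation, which lists 743 probe sets, gives 1 RefSeq gene for 15 members, several for 1 and none for 17, and no coordinates are given because no build is named. 2 matches by letters to other proteins were left out of the pathway list. Alternatives were a joint fit of all 30 arrays, the methods' t-test, a replicate block, centring of arrays, other thresholds, each array left out, and exchanged labels at 5 and 20 dpa.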

Additional observations from a re-analysis of the deposited data

Results flagged for a closer look

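GAE1 lay on opposite sides at 10 and 15 dpa, where every mutant array was below WT at the first and above it at the second, and its log2 difference at 15 dpa minus that at 10 dpa was 3.58. This difference between stages was not tested.

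Of the other probe sets, 12 were flagged because they were called lower at 15 dpa and higher at 20 dpa. In each of them every array labelled fl mutant was below WT at the first stage and above it at the second. The log2 difference at 20 dpa minus that at 15 dpa was 6.08 for UGP1, 6.62 for SusC, 11.52 and 11.71 for FLA6, 8.83 and 7.61 for AGP2, 12.39 for FLA7 (GHI.5860.1.S1_S_AT), 7.12 for FLA5, 4.88 for AGP3, 10.83 and 9.31 for PRP3 and 6.12 for PRP5. These differences were not tested, and the direction at 20 dpa rests on the sample labels, which are opposite to the study's tables for 15 of 15 members listed at that stage.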

How the results depend on the processing

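None of the 62 calls of members was lost with a joint fit of all 30 arrays, the methods' t-test, the replicate block below, arrays centred on the median or the 75th percentile, or any array left out. With a fold change of at least 2, 5 members were lower at 0 dpa, 2 higher at 10 dpa and 6 lower at 20 dpa. With WT and fl mutant labels exchanged, 1 member was higher and 2 lower at 5 dpa, and 3 were higher and 14 lower at 20 dpa. Leaving out each array in turn gave 13 to 14 members lower at 15 dpa and left the other 9 counts as they were (lower then higher, 2 and 0 for 0 dpa, 1 and 2 for 5 dpa, 24 and 1 for 10 dpa, 3 and 14 for 20 dpa, and 2 higher for 15 dpa). Labels give both genotypes the replicate numbers 1 to 3. Deviations of same-numbered arrays correlated between −0.158 and 0.156, which does not settle whether the numbers pair the samples. A fit with the replicate number as a block gave the same counts, such as 24 members lower and 1 higher at 10 dpa. The arabinogalactan median at 10 dpa moved from −1.88 to −1.18 with 1 probe set per UniGene cluster. No called difference of a named member changed sign with arrays centred, with the replicate block or with any array left out. Exchanged labels reverse the sign of every difference at 5 and 20 dpa. With 3 arrays per genotype and no levels held, signal over background could not be judged.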
